A study of Mus musculus with 9 samples.

Results

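Müller glia were identified among the single cells of dissociated mouse retinas as 2292 of 31089 cells. A cell was taken as a Müller glia when at least 4 of the 5 genes *Glul*, *Slc1a3*, *Aqp4*, *Rlbp1* and *Abca8a* had at least 1 UMI (unique molecular identifier, counting 1 captured RNA molecule). In addition, *Glul*, *Slc1a3* and *Aqp4* together had to reach 20 per 10000 UMIs, while the RPE genes *Rpe65*, *Lrat* and *Best1* and the amacrine genes *Gad1*, *Gad2* and *Slc6a9* each had to sum to under 3 per 10000. All 5 marker genes were seen in 2197 of these cells and 4 of them in 95. The mice carried the tamoxifen-inducible RPE65-ERT2-Cre transgene together with floxed miR-211 and miR-204 (miR-211fl and miR-204fl in the labels). From postnatal day 28, 4 control mice (S01 to S04) received corn oil and 5 double knockout (dKO) mice (S05 to S09) received tamoxifen at 75 mg/kg in the same vehicle, over 5 days. The retinas were taken 6 months after these injections, and the 2 retinas of a mouse were pooled. Controls thus carried the same alleles but received no tamoxifen, so that tamoxifen and deletion cannot be told apart. The deleted microRNAs are not among the genes of the count matrix, and their loss could not be checked in these cells. The *Rpe65* promoter drives Cre in the retinal pigment epithelium (RPE) and not in Müller glia, so that the question put to these cells is what happens in neighbours of the deleted cells. The labels give S06 and S07 a single animal number, and they were kept as different mice.

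Müller glia are the radial glia of the retina. They span its whole thickness, take up glutamate and convert it to glutamine, clear potassium and water, handle retinoids and support neurons with lactate and trophic factors. After injury they can enter reactive gliosis, with raised *Gfap*. miR-204 lies in an intron of *Trpm3* and miR-211 in an intron of *Trpm1*. MicroRNAs pair through their seed, bases 2 to 8, with sites in the 3′-UTR of messenger RNAs and lower their amount.

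The mature sequences of the deleted microRNAs are shown since a match to their shared seed was looked for in the genes of Müller glia. The seed is in capitals (RefSeq, GRCm38.p6, both on the plus strand, at chr19:22750610-22750631 for miR-204-5p and chr7:64205831-64205852 for miR-211-5p).
miR-204-5p: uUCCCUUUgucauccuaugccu
miR-211-5p: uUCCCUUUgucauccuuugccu
Both are 22 bases long and differ at position 17 alone, so that a 3′-UTR with AAAGGGA, the reverse complement of the seed, matches both.

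The number of Müller glia differed widely between mice. Control mice S01 to S04 had 332, 334, 286 and 33 of them, and dKO mice S05 to S09 had 50, 390, 111, 370 and 386. As a share of all cells of the mouse these were 8.04%, 8.64%, 8.84% and 1.22% in control mice and 3.09%, 9.42%, 2.36%, 11.6% and 11.1% in dKO mice. S04, S05 and S07 stood far below the other 6 mice, while S06, S08 and S09 lay above every control mouse and S04 below every dKO mouse, so that the groups overlapped in part. The mean share was 6.68% ± 3.66 (SD, n = 4) for control mice. For dKO mice it was 7.501% ± 4.44 (SD, n = 5), with a difference of 0.816 percentage points (exact permutation test, two-sided, p = 0.794). Without S04 the difference turned to -1.01 points (exact permutation p = 0.750), without S08 to -0.199 and without S09 to -0.0775 (exact permutation p = 1 each). Without S04, S05 and S07 it was 2.18 points (exact permutation p = 0.100, the smallest that 3 mice against 3 allow).

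**Figure D1:**
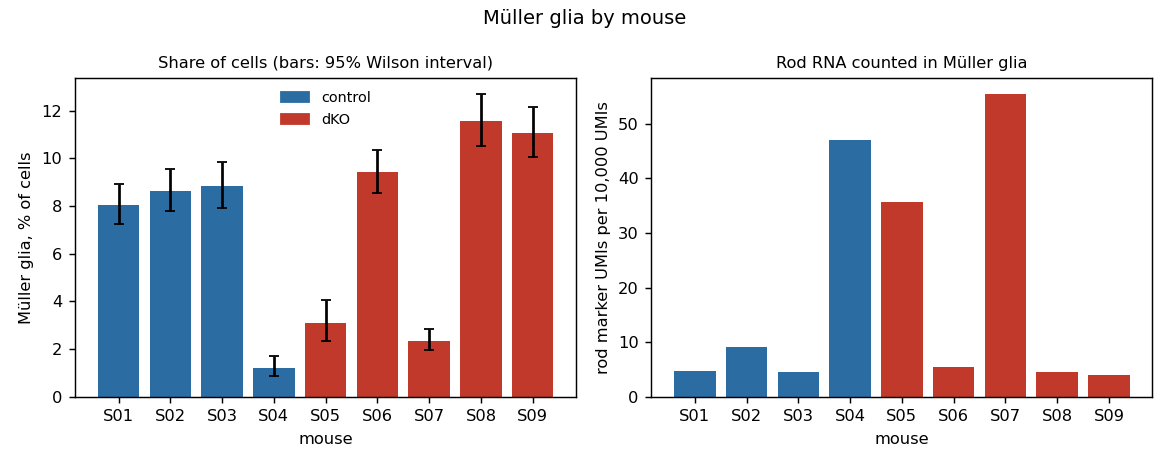
Müller glia as a percentage of all cells of each mouse with 95% Wilson intervals, which cover counting error alone (left), and UMIs of 5 rod markers per 10,000 UMIs in the summed Müller glia of each mouse (right). Control mice are blue and dKO mice red. S04, S05 and S07 have the lowest shares, 1.22% to 3.09%, and the most rod RNA, 35.6 to 55.5 per 10,000.

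S04, S05 and S07 also stood apart in other ways. Their Müller glia held 47.1, 35.6 and 55.5 UMIs of rod markers such as *Sag* and *Gnat1* per 10000, against 3.94 to 9.09 in the other 6 mice. Rods made up 66.0% to 77.8% of all cells of these mice and 30.5% to 42.1% in the others. Y-linked *Uty* had 153 to 211 CPM (counts per 1000000 UMIs of the Müller glia of a mouse) in these mice and 1.08 to 1.81 in the others, while *Xist* had 34.9 to 38.6 and 1317 to 1659 CPM. Sex, rod RNA and the number of Müller glia therefore ran together across the mice, with 1 such mouse among the controls and 2 among the dKO mice, and their part in any one result was not tested. The dKO comparisons of the share, of the summed Müller glia and of Müller glia with rods were also computed without these 3 mice. The comparison of Müller glia within each mouse, given below, was not, though S04 and S05 did not enter it.

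The depth of the cells allowed a broad view of their RNA. A Müller glia had a median of 12671 to 19426 UMIs and 3992 to 4889 genes per mouse, against a median of 7034 UMIs in all other cells. Summed over the Müller glia, S04 had 575097 UMIs and S05 773567, and the other mice between 2199867 and 8323646, so that values of S04 and S05 are the least precise. No full barcode was shared between mice (0), and none of the 18 first barcoding wells held more than 1 mouse (0 wells). The barcodes of 440 Müller glia also occurred in another sublibrary, where they stand for other cells of the same mouse.

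Near the limits of the rule, cells held more rod RNA. The 49 cells with 20 to under 25 per 10000 of *Glul*, *Slc1a3* and *Aqp4* had a median of 19.2 rod marker UMIs per 10000, and the 46 cells just outside, at 15 to under 20, had 17.7, against a median of 2.77 over all Müller glia. A further 54 cells met the other limits with 3 markers, 55 were left out by the amacrine genes alone, 9 by the RPE genes alone and 1 by both.

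Further markers were read to check the cells, as a description with no test. All 10 of a further list of Müller genes were higher than in the other cells. The potassium channel gene *Kcnj10* had 261 ± 49.9 CPM (SD, n = 9 mice), with a ratio to all other cells of 52.4, and *Sox9*, a transcription factor of glia, had a ratio of 13.2. All ratios are of mean CPM plus 1. Markers of microglia and ganglion cells each summed to at most 1.15 per 10000 in every mouse. Those of RPE and amacrine cells, which include genes that the rule itself kept low, summed to at most 0.465 and 0.655. Bipolar markers summed to 5.70 to 12.5 per 10000 and cone markers to 0.464 to 11.6, highest in S05. Endothelial markers summed to 18.9 to 27.2 per 10000 in every mouse, nearly all of it from the VEGF receptor genes *Flt1* and *Kdr*, and *Kdr* was 26.5-fold above the other cells, whereas the endothelial marker *Cdh5* had a ratio of 0.178. RNA of astrocytes, which share much with Müller glia, was found in a few cells. In 29 of the cells the astrocyte markers *Gfap*, *Pax2*, *S100b*, *Pdgfra* and *Agt* reached 5 per 10000, and 25 Müller glia held *Pax2*, which marks astrocytes in the retina. By this choice the 29 cells had 1392 CPM of *Gfap* and the remaining Müller glia 3.18. They also had 296 CPM of *Rlbp1* and 3320 of *Glul*, against 834 and 6441 CPM, and whether they were astrocytes, doublets or Müller glia with astrocyte RNA was not tested. They numbered 4, 7, 4 and 1 in S01 to S04 and 0, 3, 2, 3 and 5 in S05 to S09, and results that rest on them are given with and without them.

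The genes that set Müller glia apart are given as levels, since the cells were chosen by such genes. Per kilobase of exon, *Glul*, the glutamine synthetase gene, stood at 1448 CPM, *Abca8a*, a lipid transporter gene, at 354 and *Slc1a3*, the glutamate transporter GLAST, at 86.0. The largest ratios over all other cells among genes of at least 100 CPM were those of the noncoding RNA *BC055402* (81.6), *Spc25* (77.6), *Abca8a* (72.9), *Etnppl* (69.7) and the water channel gene *Aqp4* (68.1). *Spc25* encodes a subunit of the kinetochore, a structure of dividing cells, and had 877 ± 231 CPM (SD, n = 9). Collagen genes of cartilage and vitreous were among these 20 genes, with *Col9a1* at a ratio of 65.9 and *Col2a1* at 50.6. Others encode *Slc13a5*, a citrate transporter (44.7), and *Nr1h4*, the bile acid receptor (40.2). *Dio2*, the deiodinase that activates thyroid hormone, had a ratio of 60.9 but ran from 75.0 to 1015 CPM between mice.

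Of the host genes of the deleted microRNAs, that of miR-204 was high in Müller glia. *Trpm3* had 5892 ± 657 CPM (SD, n = 9) in Müller glia against 1282 in all other cells, or 239 CPM per kilobase of exon. It lies at chr19:22116410-22972774 (GRCm39, plus strand). *Trpm1*, which hosts miR-211 and marks ON bipolar cells, was lower in Müller glia than in the other cells, with a ratio of 0.249. In S01 to S04 *Trpm3* had 6396, 5977, 6255 and 5712 CPM, and in S05 to S09 4523, 5937, 5256, 6639 and 6333 CPM, with overlapping groups and a log2 fold change of -0.093 (SE 0.16, unadjusted p = 0.560 from edgeR's quasi-likelihood test).

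Of the groups of genes with known roles, 15 of 15 transcription factors of Müller glia were higher than in the other cells, with *Sox8* at a ratio of 36.7 and 8 of them at 10 or more. In the list of glycolysis, glycogen and lactate, 11 of 16 genes were lower, with hexokinase 2 (*Hk2*) at 0.301, while *Pygb*, a glycogen phosphorylase, was highest at 7.92. Of the complement genes and regulators, 9 of 13 were lower, but 5 of the 13 stood under 1 CPM, where such ratios say little. Immediate early genes, which respond within minutes to stimuli and to tissue dissociation, were higher in 14 of 18 cases, with *Fosb* at 6.60. Clock genes were higher in 13 of 18, with *Ciart* at 9.19. The share of all genes that were higher or lower is not given, so these counts describe the lists alone.

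When dKO mice were compared with control mice, 0 of 13652 genes passed an adjusted p of 0.05 in Müller glia (0%, quasi-likelihood test of edgeR, adjusted by Benjamini-Hochberg). DESeq2 and limma-voom also called 0 genes. At an unadjusted p below 0.05, 74 genes were higher in dKO (0.542%) and 88 lower (0.645%) by edgeR, while DESeq2 had 99 and limma-voom 202 in both directions. Together the edgeR shares lie below the rate that this threshold allows when no gene differs. The fit was thus conservative, and the lack of calls does not show a lack of change. The dKO and control mice did not overlap for 96 genes (0.703%). The median log2 fold change over all genes was 0.0073.

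Among the genes with the lowest p, 6 in each direction, each had an adjusted p of 1 in this edgeR fit, and the values are a description of their spread. *Ccdc177* had 8.50, 8.92, 7.41 and 10.4 CPM in S01 to S04 and 22.0, 17.9, 21.4, 12.6 and 12.7 CPM in S05 to S09. Every dKO mouse was above every control mouse, with a log2 fold change of 0.95 (SE 0.21, unadjusted p = 0.000845 by edgeR). *Fdft1*, which encodes squalene synthase at the entry to sterol synthesis, had 20.6, 19.5, 20.05 and 20.9 CPM in control mice and 41.4, 22.1, 29.5, 25.4 and 31.0 CPM in dKO mice. The control mice lay within a narrow range and the groups did not overlap, with a log2 fold change of 0.50 (SE 0.17). Groups also did not overlap for *Borcs5*, a subunit of a complex that positions lysosomes, and for *Ppa2*, a mitochondrial pyrophosphatase. *Ppa2* had 26.1 to 32.8 CPM in control and 36.6 to 60.8 in dKO mice, with the highest values in S05 and S07, and its log2 fold change of 0.54 was 0.30 without S04, S05 and S07. *Erbb4*, a neuregulin receptor gene (log2 fold change 1.03), and *Arhgef4*, an exchange factor for small GTPases (0.46), overlapped between the groups. Of these 6, *Arhgef4* alone was higher in Müller glia than in all other cells (ratio 2.53). The ratios were 0.599 for *Ccdc177*, 0.648 for *Fdft1*, 0.641 for *Borcs5*, 0.553 for *Ppa2* and 0.226 for *Erbb4*. Without S04, S05 and S07 the log2 fold changes were 0.81 (*Ccdc177*), 0.39 (*Fdft1*), 0.43 (*Borcs5*), 0.80 (*Erbb4*) and 0.32 (*Arhgef4*). The part of RNA from other cells was not tested.

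On the lower side, *Slc13a5*, the citrate transporter gene with a ratio of 44.7 over the other cells, had 145, 137, 131 and 129 CPM in S01 to S04 and 77.6, 93.7, 83.2, 129 and 97.7 CPM in S05 to S09. Of the dKO mice, S08 lay within the range of the controls, and the log2 fold change was -0.49 (SE 0.16, unadjusted p = 0.0119 by edgeR). *Bap1*, a nuclear deubiquitinase gene, had 24.9, 22.2, 25.9 and 26.1 CPM in control and 11.6, 20.1, 19.1, 17.3 and 13.4 CPM in dKO mice, with no overlap (log2 fold change -0.57). *Bcl7b*, a subunit of SWI/SNF chromatin remodellers (-0.50), and *Mef2b*, a transcription factor (-0.65), likewise did not overlap. The larger differences of *Fn1*, which encodes fibronectin, and of the potassium channel gene *Kcnq5* rested on few cells. In S01 to S04 *Fn1* had 12.9, 46.1, 24.8 and 233 CPM, and in S05 to S09 5.17, 24.0, 13.6, 8.28 and 10.2 CPM. S04 had 7.59 CPM once its 1 cell with astrocyte RNA was left out, and the log2 fold change moved from -2.35 to 0.070. For *Kcnq5* it moved from -1.98 to -0.48 without the cells of astrocyte RNA.

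**Figure D2:**
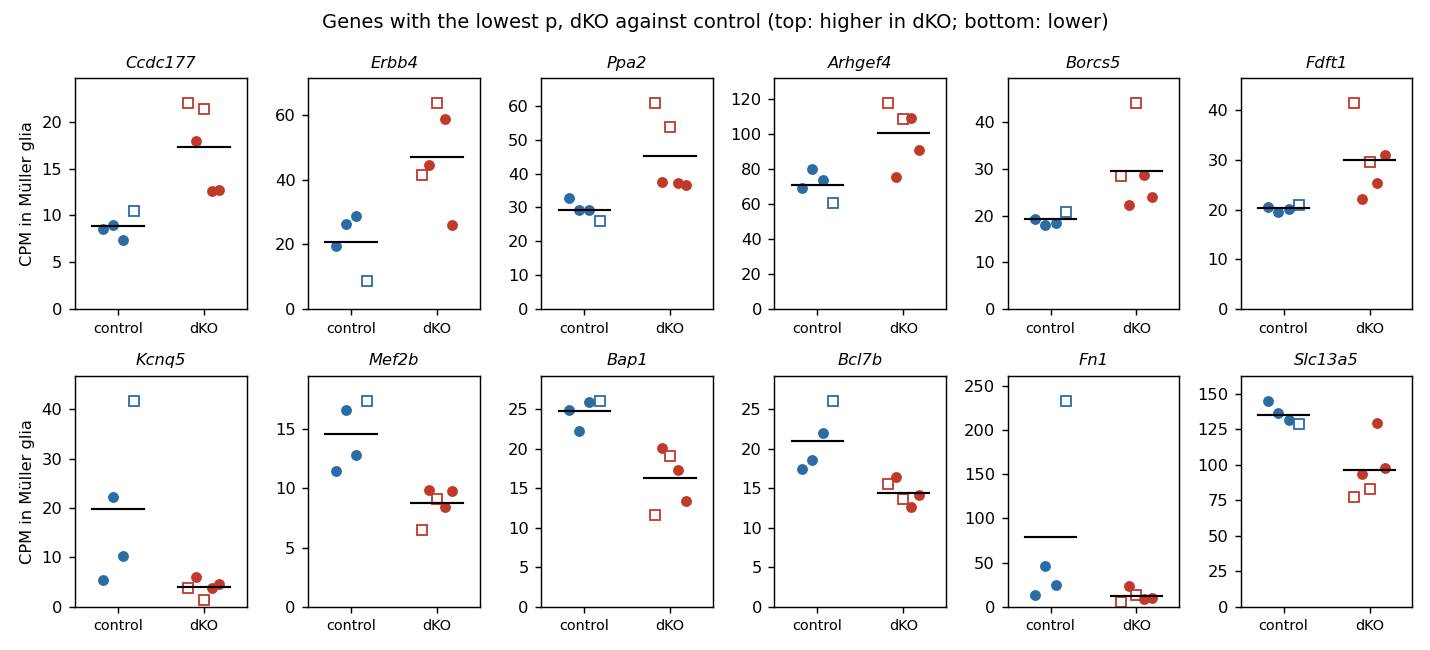
CPM in the Müller glia of each mouse for the 6 genes of lowest p that were higher in dKO (top) and the 6 that were lower (bottom), with a line at the mean of the 4 control (blue) or 5 dKO (red) mice. Open squares are S04, S05 and S07. The groups do not overlap for *Ccdc177*, *Ppa2*, *Borcs5*, *Fdft1*, *Mef2b*, *Bap1* and *Bcl7b*, and *Fn1* reaches 233 CPM in S04 alone.

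None of the lists of Müller glia functions held a gene with an unadjusted p below 0.05 (0 genes over 14 lists), in a fit where few genes of any kind did. Their median log2 fold changes lay near that of all genes for transcription factors (-0.081, 15 genes tested), retinoid handling (-0.065, 8 genes) and the Notch and Hippo pathways (-0.075, 13 genes). *Glul* had 7396, 5982, 7369 and 4370 CPM in S01 to S04 and 3256, 6586, 3556, 6787 and 6149 CPM in S05 to S09. It was lowest in S04, S05 and S07, whichever the group. Genes of water and potassium transport had a median of -0.13, with *Kcnj10* at 278 ± 38.0 CPM (SD, n = 4 control mice) and 247 ± 58.0 (SD, n = 5 dKO mice). Lipid and sterol genes had a median of 0.18 over 12 genes, and 0.31 without S04, S05 and S07. For glycolysis, glycogen and lactate, the median of 0.16 was 0.018 without those 3 mice.

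Genes of reactive gliosis lay 8 above and 8 below zero of 16 tested, with a median of -0.011. *Gfap* had 9.49, 39.9, 28.3 and 137 CPM in S01 to S04 and 9.05, 19.9, 28.6, 14.4 and 32.5 CPM in S05 to S09. A *Gfap* UMI was found in 1.81% to 8.00% of the Müller glia of a mouse. Without the cells of astrocyte RNA, which *Gfap* itself helped to choose, it stood at 0.597 to 9.05 CPM, a value that would also lack any Müller glia high in *Gfap*. *Lcn2*, a further gliosis gene, had 11.8 CPM in S02 and 17.7 in S07 and under 1 CPM in the remaining mice. *Vim* had 75.6 ± 11.03 CPM (SD, n = 4 control mice) and 62.4 ± 17.3 (SD, n = 5 dKO mice).

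Glucocorticoid-responsive genes had the lowest median of the function lists, -0.31, with 9 of 11 genes below zero, against 6588 of 13647 over all genes. Such a count was not particular to this list. Below zero were also 12 of 13 Notch and Hippo genes, 10 of 11 secreted factors and 14 of 18 clock genes. Above zero were 8 of 12 lipid and sterol genes and 9 of 15 genes of glycolysis, glycogen and lactate. The median of the glucocorticoid-responsive genes was -0.50 without S04, S05 and S07. *Fkbp5*, the best-known of them, had 57.2, 209, 13.9 and 17.4 CPM in control mice and 64.6, 16.3, 12.7, 9.72 and 53.1 CPM in dKO mice. The transcription factor gene *Zbtb16* had 182, 463, 94.8 and 146 CPM in control and 208, 134, 51.4, 88.3 and 167 CPM in dKO mice. Both were highest in control mouse S02, and the groups overlapped.

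Genes with the seed match AAAGGGA were set against those without it, since loss of a microRNA would raise its targets in the cells that lose it. The match was present in the annotated 3′-UTR of 2682 of 11871 tested genes with such a region (22.6%), against 18.7% of all 20843 genes with one. The median log2 fold change was -0.0015 for genes with the match and 0.0078 for the 9189 without it. With the match, 13 genes were higher and 23 lower at an unadjusted p below 0.05, and without it 47 and 52. The 585 genes with at least 2 matches had a median of 0.0049. The median 3′-UTR was 3291 bases with the match and 1743 without it.

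Müller glia were also compared with rods of the same mice, on the difference of their log2 CPM per mouse, to see whether dKO changed 1 cell type more than the other. Of 15306 genes, 0 had an adjusted p below 0.05 (0%, limma) and 642 an unadjusted p below 0.05 (4.19%). The lowest p were those of *Gm26618*, *Swap70*, *Fam13a*, *Taco1* and *Bmp5*, each with an adjusted p of 0.901 by limma. *Bmp5*, a bone morphogenetic protein gene with 76.7 CPM in Müller glia and 2.85 in rods, was above rods by 5.13, 5.44, 5.07 and 5.78 on the log2 scale in S01 to S04 and by 3.61, 4.76, 3.96, 4.50 and 4.25 in S05 to S09. The groups did not overlap, with a difference between them of -1.14 (SE 0.27). *Fam13a* was above rods by 2.50 to 2.70 in control and 1.45 to 2.26 in dKO mice (difference -0.84, SE 0.19).

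Between mice, irrespective of group, sex-linked genes and rod genes were among the most variable. Of 6793 genes of at least 20 CPM, the median SD of log2 CPM plus 1 over the 9 mice was 0.238. Of the 100 most variable, 70 were higher in S04, S05 and S07 than in all other mice, and 67 of these were higher in rods than in Müller glia. A further 4 were lower in S04, S05 and S07 than in all other mice, and 26 were neither. The shares over all 6793 genes are not given, so these counts describe the 100 genes alone. At the top stood the Y-linked *Uty*, *Eif2s3y*, *Kdm5d* and *Ddx3y*, *Xist*, and the rod genes *Gngt1*, *Gnat1* and *Pde6g*. *Pdgfra*, *Gm42906* and *Igfbp5* were highest in S04, where 217, 191 and 273 CPM became 0, 7.59 and 9.49 without the cell of astrocyte RNA, for which *Pdgfra* was among the choosing markers. *Nr4a3*, an immediate early gene, was lowest in S04, S05 and S07 (1.36 to 12.2 CPM, against 20.8 to 70.2). In the same mice *Fos* had 203 to 330.5 CPM against 419 to 692, and the clock gene *Per1* 71.3 to 91.8 against 303 to 407.

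The noncoding RNA *Gm48606* was high in control mice S01, S02 and S03 and low in the dKO mice other than S07. Control mouse S04 and dKO mouse S07 went against their groups, so that the groups overlapped. Of the mice with the most rod RNA, it was high in S07 and absent in S04 and S05. It lies at chr12:16257734-16336120 (GRCm39, plus strand). S01, S02, S03 and S07 had 99.3, 104, 95.4 and 95.9 CPM, and 47.6% to 56.8% of their Müller glia held a UMI of it. S04 and S05 had 0 UMIs in 33 and 50 cells, which allows up to 5.22 and 3.88 CPM (3 counts per mouse, counting error only). S08 and S09 had 3.06 and 2.36 CPM, with a UMI in 3.24% and 3.11% of cells. S06 had 21.5 CPM, but 165 of its 179 UMIs lay in 8 cells, and without the upper 5% of cells by UMIs it had 1.42 CPM. Rods, by comparison, had 2.93 to 17.4 CPM in all mice.

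Within each mouse, Müller glia were compared by the dorsal transcription factor *Tbx5* and the ventral transcription factor *Vax2*, which pattern the eye along its dorsal to ventral axis. In all mice, 336 Müller glia held a UMI of *Tbx5* without *Vax2* (14.7%, here Tbx5 cells), 566 of *Vax2* without *Tbx5* (24.7%, Vax2 cells), 46 of both and 1344 of neither. Since a UMI of *Vax2* can also come from rods, which had 80.7 CPM of it against 33.7 in Müller glia, the split is coarser on that side. *Tbx5* had 20.8 CPM in Müller glia and 1.92 in rods. The test used the 7 mice with at least 10 cells of both kinds, S01 to S03 and S06 to S09, with 327 and 544 cells and the mouse as a block. Their median depths were 17163 and 17150 UMIs. S04 and S05 did not enter the fit.

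Of 10855 genes tested, 176 were higher in Tbx5 cells (1.62%) and 117 in Vax2 cells (1.08%) when called at an adjusted p of 0.05 by the same edgeR test, 137 of them by at least 1 on the log2 scale. With library sizes in place of TMM factors, which moved the median of all genes by about -0.041, the calls were 141 and 139. In 235 of the 293 genes all 7 mice lay on the same side. Müller glia with neither transcript lay between both kinds for 156 of the 176 and 100 of the 117 genes. The genes were called for their differences in these same mice. Both counts therefore describe the calls and do not test them, and the shares over all genes are not given. In S04 and S05, summed, 125 of 176 and 92 of 117 had the same sign, on 4 and 5 Tbx5 cells and 9 and 13 Vax2 cells. In so few cells a gene can take its sign from a lack of counts, as *Slc4a4* and *Lrrtm3* with 0 CPM in Tbx5 cells. The sign also agreed for *Kcnip1* (16.7 and 644 CPM), which did not hold in the repeat described below. The share over all genes is not given, so these counts are a description.

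RNA of other cell types differed between both kinds. Bipolar markers had a mean of 6.35 per 10000 in Tbx5 cells and 11.3 in Vax2 cells, astrocyte markers 0.552 and 1.63, and rod markers 9.66 and 10.6, and 3 and 13 cells had astrocyte RNA. Of the genes higher in Vax2 cells, 81 of 117 were higher in all other retinal cells than in Müller glia, against 33 of 176 of those higher in Tbx5 cells. The share over all genes tested is not given, so these counts describe the calls alone. Given the marker values, the test was repeated with some cells left out, as a choice made after seeing the data. Left out were cells that had astrocyte RNA, the most rod RNA (upper 25% of each mouse) or the most RNA of other neurons (upper 10%). The repeat called 168 of 9077 genes in Tbx5 cells (1.85%) and 114 in Vax2 cells (1.26%). Of the first calls, 123 of 175 tested again in Tbx5 cells and 49 of 79 in Vax2 cells were called again. In what follows this second fit is named the reduced set.

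Of 8 genes of retinoid handling tested, 2 were called higher in Tbx5 cells (*Aldh1a1* and *Dhrs3*) and 0 in Vax2 cells, and in the reduced set 3 and 0. *Aldh1a1*, which makes retinoic acid in the dorsal retina, had 204 to 325 CPM (median 256) in the Tbx5 cells of the 7 mice and 12.7 to 35.1 (median 29.2) in their Vax2 cells. The ranges did not overlap, and the log2 fold change was 3.23 (SE 0.17, adjusted p = 1.09e-06 by edgeR). *Cyp26b1*, a named gene outside that list whose enzyme degrades retinoic acid, had 31.6 to 90.2 CPM (median 53.7) and 2.03 to 7.94 (median 4.86), again apart in every mouse (log2 fold change 3.55, SE 0.20). *Dhrs3*, a retinaldehyde reductase gene, was higher by 0.73 (SE 0.16, adjusted p = 0.0286 by edgeR), though it was not called without S01, S03, S08 or S09 (highest adjusted p 0.0934). A second degrading enzyme gene, *Cyp26a1*, was not called over all cells (log2 fold change 1.84, adjusted p = 0.302 by edgeR) and was called in the reduced set (3.61, adjusted p = 0.00700). *Rlbp1*, which belongs to the rule, is not read here.

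Ephrin ligands, which guide ganglion cell axons along this axis, differed as well. *Efnb2* had 91.9 to 258 CPM (median 194) in Tbx5 cells and 2.68 to 29.8 (median 6.25) in Vax2 cells, with no overlap (log2 fold change 4.16, SE 0.31). *Efnb1* was higher by 1.33 (SE 0.18, adjusted p = 0.00154 by edgeR), but in the reduced set by 0.77 (adjusted p = 0.0737). Of the receptors, *Ephb2* (0.043) and *Ephb3* (-0.085) were not called. Of 5 dorsal genes tested 3 were called (*Aldh1a1*, *Efnb1* and *Efnb2*), and *Tbx2*, at 53.8 and 52.5 CPM, and *Tbx3* were not. Of 3 ventral genes tested 0 were called, and *Bmpr1b* had a log2 fold change of -0.21 (adjusted p = 0.502 by edgeR).

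The transcription factor gene *Nr2f2* (COUP-TFII) and both noncoding genes beside it were high in Tbx5 cells. *Nr2f2* lies at chr7:70001692-70016519 on the minus strand (GRCm39). *Gm29683* lies 3131 bases from it on the same strand, and *B130024G19Rik* overlaps it by 9328 bases on the opposite strand, where reads could not be told apart without strand. *Gm29683* had 133 to 276 CPM in Tbx5 cells and 0 to 28.5 in Vax2 cells, the largest difference among the named genes (log2 fold change 4.85, SE 0.37). *Nr2f2* itself had 34.1 to 51.7 and 0.671 to 21.2 CPM (2.89, SE 0.37), and *B130024G19Rik* 46.8 to 106 and 0.812 to 22.5 CPM (3.25, SE 0.34). In all of these S02 had the highest level in Vax2 cells, and the ranges did not overlap.

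Others of the 10 named genes of Tbx5 cells were *Nxph1*, a secreted ligand of neurexins, with 175 to 1074 CPM against 8.63 to 80.1 (log2 fold change 4.295, SE 0.38), *Tes* (2.14), *Stxbp6* (2.09) and *Necab2* (2.10). *Nxph1* was also abundant in other retinal cells (257 CPM). All 10 were higher in 7 of 7 mice, *Necab2* alone overlapped between Tbx5 and Vax2 cells, and all 10 were called again in the reduced set.

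A further 3 genes of Tbx5 cells were chosen to be named after their values were seen. *Slco1c1*, a thyroid hormone transporter gene, had 139 to 462 CPM (median 313) in Tbx5 cells and 47.2 to 117 (median 93.7) in Vax2 cells, with no overlap (log2 fold change 1.83, SE 0.10, adjusted p = 1.09e-06 by edgeR). *Dio2* was higher by 1.46 (SE 0.23) in 7 of 7 mice, although its level between mice spread so widely, from 76.4 to 1673 CPM in Tbx5 cells, that the ranges overlapped. *Brinp1* (log2 fold change 1.95, SE 0.19) had 57.5 to 168.5 CPM in Tbx5 cells and 18.6 to 50.3 in Vax2 cells, again apart. These 3 genes were called in the reduced set too.

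**Figure D3:**
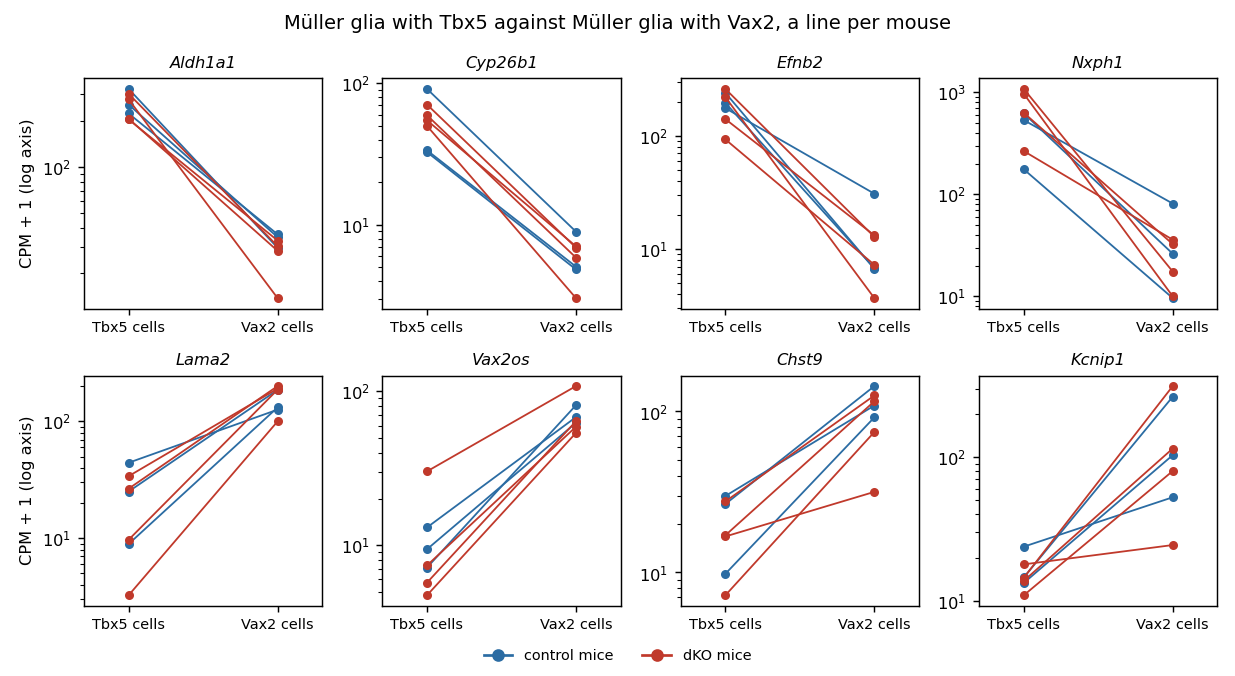
CPM plus 1 (log axis) in Tbx5 cells and Vax2 cells of the same mouse for 8 genes, with a line for each of the 3 control (blue) and 4 dKO (red) mice in the test. *Aldh1a1*, *Cyp26b1*, *Efnb2* and *Nxph1* fall and *Lama2*, *Vax2os*, *Chst9* and *Kcnip1* climb from Tbx5 to Vax2 cells in all 7 mice.

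Of the 10 named genes of Vax2 cells, 3 were called again in the reduced set. *Lama2*, which encodes a laminin chain of basement membranes, had 99.1 to 200 CPM (median 185) in Vax2 cells and 2.25 to 43.3 (median 24.1) in Tbx5 cells. The ranges did not overlap (log2 fold change -2.93, SE 0.28), and in the reduced set it was -3.23 (SE 0.25). *Chst9*, a sulfotransferase gene, had 30.7 to 143 CPM in Vax2 cells and 6.21 to 28.8 in Tbx5 cells (-2.45 over all cells and -2.32 in the reduced set). *Chst9* was also abundant in other retinal cells (193 CPM, and 57.5 in rods). *Vax2os* (-2.96) is the antisense neighbour of *Vax2*, overlaps it by 976 bases at chr6:83688215-83689190 and may thus share reads with the gene that chose the cells. It was also higher in rods (170 CPM). Outside the rule for named genes, the postsynaptic receptor gene *Grin2b* (-1.63, SE 0.17), the muscle LIM protein gene *Pdlim3* (-1.84, SE 0.16) and *Cadps2*, of vesicle release (-1.73, SE 0.21), were higher in Vax2 cells in 7 of 7 mice. These were chosen after their values were seen, and in the reduced set they stood at -2.32, -1.99 and -2.49, each called. *Grin2b* had 177 to 461 CPM in Vax2 cells and 55.9 to 181 in Tbx5 cells.

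None of the remaining 7 was called in the reduced set, where some could not be tested. *Kcnip1* went from -2.75 to -0.29 (adjusted p = 0.818 by edgeR), *Slc8a1* from -1.96 to -0.25 (0.829) and *Lingo2* from -1.94 to -0.053 (0.977). *Gm42906*, *Slc4a4*, *Opcml* and *Lrrtm3* no longer had enough counts to be tested. Single mice also decided some of these calls, since *Slc4a4* was not called without S09 (adjusted p = 0.0598 by edgeR), *Lingo2* not without S01, S06, S08 or S09 (highest 0.0711) and *Lrrtm3* not without S01, S03, S06, S07 or S09 (highest 0.105). All of these genes but *Slc8a1* and *Lingo2* were read in the cells with astrocyte RNA, where *Kcnip1* had 1783 CPM against 32.3 in the remaining Müller glia, *Lrrtm3* 938 against 11.7, *Gm42906* 920 against 4.22, *Slc4a4* 784 against 7.23 and *Opcml* 685 against 16.6. *Lama2*, by contrast, had 167 and 103 CPM. With only the cells of astrocyte RNA left out, *Kcnip1* (-1.45, adjusted p = 0.0423 by edgeR), *Slc8a1* (-1.12, 0.0236) and *Lingo2* (-1.98, 0.0180) were still called. In that fit *Opcml* (-1.13, 0.0652), *Slc4a4* (-0.60, 0.846) and *Lrrtm3* (-0.57, 0.636) were not called, and *Gm42906* was not tested.

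**Figure D4:**
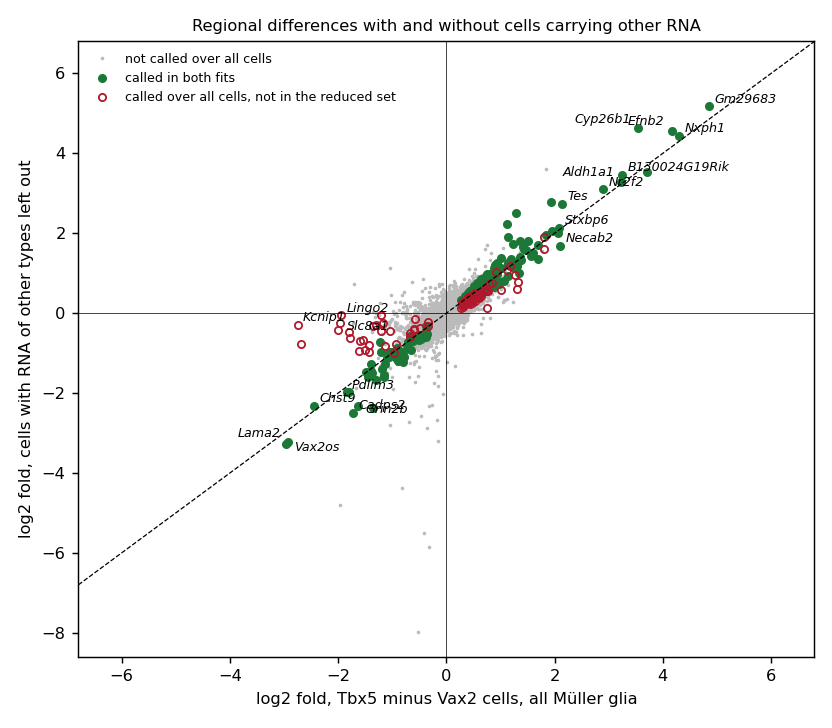
Log2 fold change between Tbx5 and Vax2 cells over all Müller glia (x axis) and with cells left out that held RNA of astrocytes, rods or other neurons (y axis), 1 point per gene tested in both. Green genes were called in both fits, open red genes only over all cells, and the dashed line marks equal values. *Lama2*, *Vax2os* and *Chst9* lie near the line, and *Kcnip1*, *Slc8a1* and *Lingo2* near zero on the y axis.

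Immediate early genes were higher in Tbx5 cells. Of 15 genes of the list tested, 8 were called higher in Tbx5 cells (*Fos*, *Fosb*, *Jun*, *Junb*, *Egr1*, *Zfp36*, *Btg2* and *Dusp1*) and 0 in Vax2 cells, and 15 of 15 had a positive log2 fold change (median 0.49, against 0.00047 for all genes tested). *Fos* had 485 to 915 CPM (median 692) in Tbx5 cells and 302 to 612 (median 511) in Vax2 cells. It was higher in Tbx5 cells of all 7 mice, while the ranges over mice overlapped (log2 fold change 0.58, SE 0.063, adjusted p = 2.20e-04 by edgeR). Cells with neither transcript had a mean of 498 CPM of *Fos*, near the 476 of Vax2 cells and below the 691 of Tbx5 cells. In the reduced set 6 of 15 were called, with 14 positive, and leaving out 1 mouse at a time gave 4 (without S06 or S09) to 8 (without S01). Of the Notch and Hippo list, 2 of 11 genes tested were called higher in Tbx5 cells (*Ccn1*, 0.64, and *Ccn2*, 1.22), of the gliosis list 1 of 15 (*Cebpd*, 0.90) and of the glucocorticoid list 1 of 11 (*Per1*, 0.45), with *Ccn1* not called in the reduced set nor without S02, S06, S08 or S09, and *Per1* not without S03, S06 or S09 (highest adjusted p 0.121 and 0.0784). The cells came from dissociated tissue, and whether such genes were on before dissociation was not tested.

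**Figure D5:**
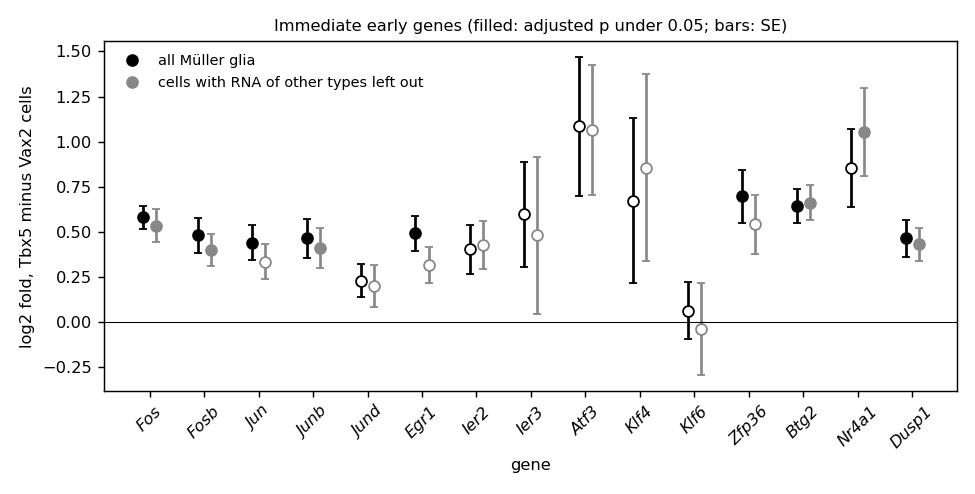
Log2 fold change between Tbx5 and Vax2 cells, with SE, for 15 immediate early genes over all Müller glia (black) and in the reduced set (grey). Filled points have an adjusted p below 0.05. All black points lie above zero, from 0.064 (*Klf6*) to 1.08 (*Atf3*).

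Of the other lists, the transcription factors of Müller glia were not called in either direction (0 of 14 tested, median 0.11), nor were energy genes (0 of 14, median -0.0091). Of lipid genes 0 of 12 were called (median -0.33), while in the reduced set 2 of 12 were higher in Vax2 cells, the desaturase gene *Scd2* (-0.48, adjusted p = 0.00411 by edgeR) and the transporter gene *Abca8b* (-0.42, adjusted p = 0.0259). The reduced set also called *Lcn2*, of the gliosis and glucocorticoid lists, higher in Vax2 cells (-4.81, adjusted p = 0.00309 by edgeR), against -1.97 (adjusted p = 0.544) over all cells, on the few counts described above. *Vegfa* (0.40), the antioxidant genes *Prdx6* (0.59) and *Gpx3* (1.69) and the secreted Wnt modulator *Dkk3* (0.31) were higher in Tbx5 cells, while the growth factor gene *Ptn* (-0.34) and the clock repressor *Bhlhe41* (-0.60) were higher in Vax2 cells. *Dkk3*, *Ptn* and *Bhlhe41* were not called in the reduced set (adjusted p = 0.146, 0.192 and 0.295 by edgeR), and *Vegfa* not without S02, S03, S06 or S08 (highest adjusted p 0.0886). *Trpm3* had 5971 and 6206 CPM in Tbx5 and Vax2 cells (log2 fold change -0.015, SE 0.061).

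Whether the difference between Tbx5 and Vax2 cells itself differed between dKO and control mice was tested on 10328 genes, of which 0 passed (0%, limma, lowest adjusted p 0.998) and 328 had an unadjusted p below 0.05 (3.18%).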

How the data were processed

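Retinas were dissociated with papain and single cells barcoded by split-pool ligation (Evercode) in 8 sublibraries. The deposited counts are raw UMI counts per gene and cell, which the authors made with split-pipe on GRCm39, before their normalization in Seurat 4.3.0 and R 4.2.2 (per the submitters' processing notes). No handling of doublets is named in the sources used here, and neither doublets nor free RNA were removed. The deposited cluster column holds the first barcoding well and was not used as a cell type. Counts of 37725 gene names were summed over the Müller glia of each mouse, and mice were the replicates. Each sample is labelled with 1 animal, but the number given for S06 is repeated for S07, so the labels alone do not separate them. Their Müller glia differed in sex-linked RNA, with 1317 CPM of *Xist* and 1.08 of *Uty* in S06. In S07 *Xist* had 38.6 CPM and *Uty* 201. With both kept as different mice, p-values measure the spread between mice. Groups were compared with edgeR 4.0.16 in R 4.3.3 (quasi-likelihood test, TMM, filterByExpr, Benjamini-Hochberg adjustment at 0.05). The difference between Müller glia and rods was tested with limma 3.58.1 (prior count 2), as was that of Tbx5 and Vax2 cells between groups, and shares with exact permutation tests in scipy 1.17.1. Levels are CPM of the summed counts, and ratios use a pseudocount of 1. Gene positions are from GENCODE M39 on GRCm39, with 36645 names matched. The fits were tested on simulated data. Wilson intervals and limits of 3 counts cover counting error only.

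The members, lists, tests and alternatives were chosen with earlier results of these data known. Genes were named as the 6 of lowest p in each direction at a mean of at least 10 CPM (dKO), the 10 largest fold changes in each direction among called genes of at least 20 CPM (Tbx5 and Vax2 cells), the 15 largest SD of at least 20 CPM (between mice), the 20 largest ratios of at least 100 CPM (levels), and in lists the highest, the lowest and the lowest p. *Slco1c1*, *Brinp1*, *Dio2*, *Efnb1*, *Pdlim3*, *Cadps2*, *Grin2b* and further list members given beside these were chosen after their values were seen. The alternatives were DESeq2 1.42.0, limma-voom, library sizes, no filter on low counts, all 5 markers, other splits by *Tbx3* and *Vax1*, the upper 5% of cells by UMIs or 25% by rod RNA left out, each mouse left out, and, chosen after seeing the data, S04, S05 and S07 left out, S06 and S07 summed, the cells with astrocyte RNA or RNA of other neurons left out and thinning to equal totals. Results for some genes are not reported here.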

Additional observations from a re-analysis of the deposited data

Results flagged for a closer look

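A mouse far from the others of its group was found in 20 of the 80 groups of values examined. At 5 per 100 about 4 would be flagged by chance, if the values were independent and not chosen for spread. Neither held, since most of the flagged genes had been named for their large spread between mice and many flags share a mouse. The 20 flags are therefore a description, and no excess over chance is read from them. Most were in control mouse S04, the control mouse with Y-linked RNA, the most rods and 33 Müller glia. There the share of Müller glia was 1.22% (other controls 8.04% to 8.84%) and the rod markers stood at 47.1 per 10000 UMIs (4.50 to 9.09). The Y-linked genes *Uty*, *Eif2s3y*, *Kdm5d* and *Ddx3y* had 153, 117, 64.3 and 86.9 CPM in S04 and at most 1.53 in the other controls, and *Xist* had 36.5 CPM against 1531 to 1659. The rod genes *Gnat1*, *Gngt1* and *Pde6g* had 1101, 165 and 169 CPM in S04 (at most 124, 17.5 and 19.9 in the other controls). *Fn1* at 233 CPM, *Pdgfra* at 217 and *Gm42906* at 191 in S04 were 7.59, 0 and 7.59 without the 1 cell of astrocyte RNA, which was chosen by markers that include *Pdgfra*. *Gm48606* had 0 CPM in S04, against 95.4 to 104 in the other controls.

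Among dKO mice, S07 stood apart for *Gm48606* (95.9 CPM, others 0 to 21.5), *Pdgfra* (67.7 CPM, others 1.29 to 11.9, and 0.981 in S07 without 2 cells of astrocyte RNA) and *Lcn2* (17.7 CPM, others at most 0.900). S05 stood apart for the cone gene *Gnat2* (94.4 CPM, others 3.78 to 23.2). In control mice *Lcn2* had 11.8 CPM in S02 (others at most 0.989), and *Aqp4*, a gene of the rule, had 921 CPM in S03 (others 628 to 676). The part of sex, rod RNA or astrocyte RNA in these values was not tested.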

How the results depend on the processing

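No paired analysis was possible because control and dKO mice share no replicate number in the labels. The difference in the share of Müller glia, 0.816 points, ran from -1.01 to 2.10 with 1 mouse left out, being -1.01 without S04, -0.199 without S08 and -0.0775 without S09. For dKO against control, 0 genes were called under all 21 alternatives run, with 99 (DESeq2) to 658 (no filter on low counts) at an unadjusted p below 0.05, and for Müller glia minus rods 0 under all 13, with 440 to 1141. The 293 calls between Tbx5 and Vax2 cells became 778 (301 and 477) with no filter on low counts, 187 (129 and 58) with *Tbx3* and *Vax1* added to the split, and 172 to 265 with 1 mouse left out, of which 172 (102 and 70) without S09. The other alternatives gave 244 to 353, with 257 by DESeq2 and 353 by limma-voom. Over the alternatives, 1 of 248 values of the genes named for dKO changed sign (*Fn1*, 0.070 without the cells of astrocyte RNA), and of 355 values of the genes named for Tbx5 and Vax2 cells 30 were no longer called, all among those higher in Vax2 cells. S04 and S05, with 33 and 50 Müller glia, limit the depth of the dKO comparison.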
